A study of Mus musculus with 6 samples.

Results

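Macroautophagy starts when the ULK complex is switched on at sites where a new membrane, the phagophore, will form, and this complex recruits the class III PI3-kinase complexes, which make the lipid phosphatidylinositol 3-phosphate (PI3P) on that membrane. The ULK complex joins the kinase ULK1 to ATG13, ATG101 and the scaffold FIP200, which the gene Rb1cc1 encodes. The PI3-kinase complexes share the kinase VPS34 (Pik3c3), its regulatory subunit VPS15 (Pik3r4) and Beclin 1 (Becn1), and differ in whether they hold ATG14, which places them at the phagophore, or UVRAG, which places them on endosomes. AMBRA1 binds Beclin 1 and links it to ULK1. In the kidney, autophagy in tubule cells is known to limit the injury caused by cisplatin, a platinum drug that damages DNA and mitochondria.

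The transcripts described here are those of these 10 genes, Ulk1, Atg13, Rb1cc1, Atg101, Becn1, Pik3c3, Pik3r4, Atg14, Uvrag and Ambra1. They were taken by gene name from a table of 54532 genes, in which each name occurs in exactly 1 row. RNA was sequenced from kidneys of 3 WT and 3 TRPM2-KO (Trpm2-/-) mice of the strain C57BL/6J, labelled as 6 to 8 weeks old, although the methods of the study give an older range. Every mouse received 18 mg/kg cisplatin and was killed 72 h later, so both genotypes carry the same injury model and untreated kidneys were not analysed here. TRPM2 is a calcium-permeable cation channel that opens during oxidative stress. According to the methods, the mice were male and the knockout allele lacks exons for a part of the transmembrane region, so that no working channel forms. The WT mice were bought from a supplier and the knockout line came from another institution, and littermates are not mentioned there. Libraries are named by genotype and mouse number, 1, 2 and 3 for WT and 1, 2 and 4 for Trpm2-/-.

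Total counts on genes were 15991951 to 17150089 in WT libraries and 14053307 to 16150446 in Trpm2-/- libraries. Reads on Trpm2 itself numbered 5, 5 and 27 in WT mice 1, 2 and 3 and 10, 16 and 20 in Trpm2-/- mice 1, 2 and 4, and since a gene-level count includes the exons that the allele keeps, these do not check the genotype labels. The libraries of the 2 genotypes also differed in cell type markers and in mitochondrial reads. In CPM, the count of a gene scaled to the TMM-normalized size of its library, 7 proximal tubule markers summed to 2388 to 3233 in WT and 627 to 1007 in Trpm2-/- libraries, and all 7 of these genes were called lower. Genes of the mitochondrial genome took 4.43% to 4.72% of counts in WT and 7.91% to 11.04% in Trpm2-/- libraries. In bulk tissue, fewer cells of a type and less RNA per cell cannot be told apart. The part of these differences in the values below was not tested.

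No member of either complex was called between the genotypes. A gene is said to be called where the quasi-likelihood test of edgeR gave it an adjusted p under 0.05. Of the 10 genes, 0 were called higher and 0 lower in Trpm2-/- kidneys, where 4.74% of the 15816 genes tested were higher and 7.28% were lower. DESeq2, limma-voom and limma on FPKM, a level scaled for gene length and library size, also called 0. At an unadjusted p under 0.05, 1 member, Atg101, was past the threshold in edgeR, as 1 member was in each of the other 3 tools, against 28.3% of all genes tested in either direction and 14.3% in the direction of Atg101, lower. None passed the threshold of the study's methods, an absolute log2 fold change above 1 with a p under 0.05, which 7.6% of all genes passed. The members' log2 fold changes lay between -0.54 and 0.12 with a median of -0.05, beside a median of 0.02 over all genes tested, and 4 were above 0 and 6 below. All 10 passed the filter on low counts, with 272 to 1603 reads in each library, so the counting error of a single value was 2.498% to 6.06%.

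**Figure D1:**
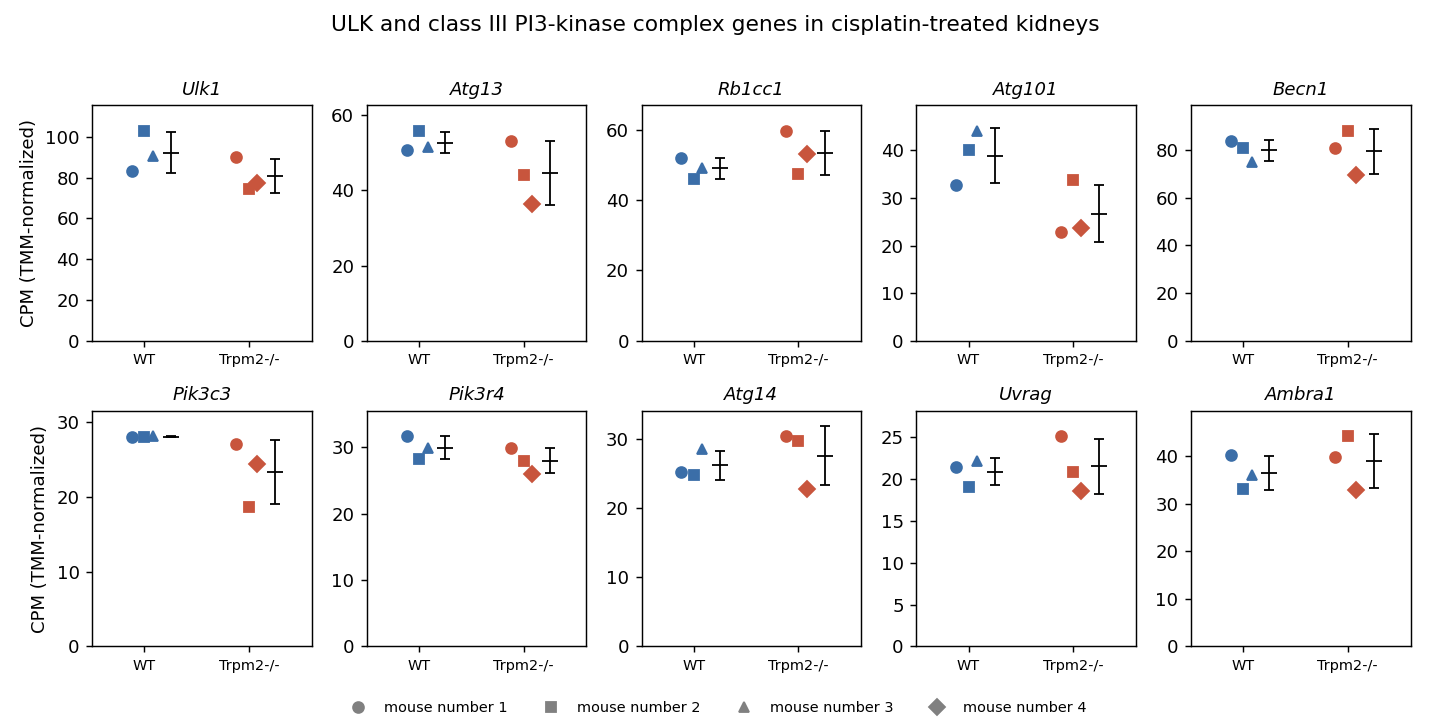
Normalized level of each of the 10 genes in CPM (vertical axis, from 0) in the 3 WT (blue) and 3 Trpm2-/- (red) kidneys, with the mean and SD as a black bar beside the points and the symbol giving the mouse number. The genotypes overlap in every panel except Pik3c3, and Atg101 shows the largest gap between means, 38.9 against 26.7 CPM.

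Among the ULK complex, Atg101 had the largest difference. ATG101 is a small protein that pairs with ATG13 and keeps it stable. Its gene (ENSMUSG00000037204) lies on the plus strand of chromosome 15 from 101284272 to 101290945 in GRCm38. Atg101 had 32.6, 40.0 and 44.1 CPM in WT mice 1, 2 and 3 and 22.9, 33.7 and 23.6 CPM in Trpm2-/- mice 1, 2 and 4. Trpm2-/- mice 1 and 4 were below every WT mouse, while mouse 2 was just above the lowest WT mouse, so the genotypes overlapped. The means were 38.9 ± 5.82 and 26.7 ± 6.02 CPM (SD, n = 3), and the fitted log2 fold change was -0.54 (standard error, SE, of 0.185, 95% confidence interval -0.96 to -0.13, adjusted p = 0.0881 by edgeR). Over the alternatives that were run, this adjusted p ranged from 0.0190 to 0.300. Without Trpm2-/- mouse 2 the log2 fold change was -0.74 and Atg101 was called (adjusted p = 0.0263 by edgeR). Of all genes tested, 72.7% had a smaller absolute log2 fold change.

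The DNA before the start of Atg101 is shown because this gene differed most, beside that of Ulk1, the kinase of the same complex. Each run is the 250 bases before the RefSeq transcript start (GRCm38.p6, 5′ to 3′ on the gene's strand), chr15:101284051-101284300 on the plus strand for Atg101 and chr5:110810082-110810331 on the minus strand for Ulk1. The capitals mark an ETS-type motif.
Atg101: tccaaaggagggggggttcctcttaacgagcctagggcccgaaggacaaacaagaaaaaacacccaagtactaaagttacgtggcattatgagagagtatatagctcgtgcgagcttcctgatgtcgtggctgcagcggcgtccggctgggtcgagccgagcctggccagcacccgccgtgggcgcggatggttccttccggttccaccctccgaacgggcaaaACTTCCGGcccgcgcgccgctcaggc
Ulk1: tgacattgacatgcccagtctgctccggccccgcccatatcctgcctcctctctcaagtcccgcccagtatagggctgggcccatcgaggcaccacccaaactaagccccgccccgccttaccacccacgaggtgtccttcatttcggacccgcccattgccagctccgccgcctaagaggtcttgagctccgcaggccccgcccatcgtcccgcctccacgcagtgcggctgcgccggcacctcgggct

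G and C made up 61.2% of the Atg101 window and 67.2% of the Ulk1 window, with 23 and 20 CpG dinucleotides. The windows of 7 members were found in the RefSeq table. On either strand, the ETS-type motif CCGGAAGT occurred in 1 of them, Atg101, and in 2.88% of 32851 windows of the same length. The E-box CACGTG, the core of the sites bound by TFEB and related regulators of autophagy genes, occurred in 0 of the 7 and in 6.02% of all windows. The CCAAT box occurred in Pik3r4 and Uvrag and in 33.8% of all windows, and neither TGACGTCA (1.55% of all windows) nor GTAAACA (3.17%) was found in any of the 7. No motif searched contains another, and a match in these letters is a description of the window.

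Ulk1, the initiating kinase itself (ENSMUSG00000029512, chromosome 5, 110784488 to 110810097, minus strand), had 83.1, 103 and 90.4 CPM in WT mice and 90.3, 74.6 and 77.5 CPM in Trpm2-/- mice. Trpm2-/- mice 2 and 4 were below all WT mice and mouse 1 was among them. The log2 fold change was -0.19 (SE 0.137, 95% confidence interval -0.50 to 0.12, adjusted p = 0.407 by edgeR). Atg13, whose protein bridges ULK1 to FIP200 (ENSMUSG00000027244, chromosome 2, 91674618 to 91710576, minus strand), had 50.6, 55.8 and 51.6 CPM in WT mice and 53.2, 44.1 and 36.4 CPM in Trpm2-/- mice. Trpm2-/- mouse 1 lay inside the WT range, and mice 2 and 4 lay below it. Its log2 fold change was -0.24 (SE 0.154, adjusted p = 0.344 by edgeR). Rb1cc1, the gene of the scaffold FIP200 (ENSMUSG00000025907, chromosome 1, 6206197 to 6276648, plus strand), had 51.9, 46.1 and 49.1 CPM in WT mice and 59.7, 47.5 and 53.1 CPM in Trpm2-/- mice, the only positive difference of the 4 ULK complex genes (log2 fold change 0.12, SE 0.132, adjusted p = 0.584 by edgeR). Rb1cc1 shares exon sequence on the opposite strand with the antisense gene 4732440D04Rik, which had 7.36 CPM in WT and 9.32 CPM in Trpm2-/- kidneys, and without strand the reads of the overlap cannot be told apart. As 1.61% of its 75-base transcript windows also occur in Gm13961, its count is slightly uncertain.

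Of the PI3-kinase genes, Pik3c3, which encodes the lipid kinase VPS34, was the single member whose genotypes did not overlap. It (ENSMUSG00000033628, chromosome 18, 30272747 to 30348126, plus strand) had 27.9, 28.0 and 28.0 CPM in WT mice and 27.0, 18.6 and 24.3 CPM in Trpm2-/- mice. All 3 knockout values were below all 3 WT values, a pattern shown by 16.8% of all genes tested, while 16.7% showed the opposite one. The WT values agreed to within a coefficient of variation (CV) of 0.190%, which is smaller than the counting error of a single one of these values, so this closeness is below what the read counts can resolve. Trpm2-/- mouse 2 carried much of the gap. The log2 fold change was -0.26 (SE 0.162, 95% confidence interval -0.63 to 0.10, adjusted p = 0.323 by edgeR), and it was -0.13 without this mouse.

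Becn1, whose protein is the platform of both PI3-kinase complexes and is held in check by BCL2, showed the smallest difference of the 10. Becn1 (ENSMUSG00000035086, chromosome 11, 101285952 to 101302286, minus strand) had 83.9, 80.9 and 75.2 CPM in WT mice and 80.9, 88.1 and 69.6 CPM in Trpm2-/- mice. The knockout values lay on both sides of the WT range. Its log2 fold change was -0.01 (SE 0.132, adjusted p = 0.974 by edgeR), and the 95% confidence interval of the change reached from -19.1% to 22.0%. Its exons overlap those of Cntd1 on the opposite strand, which had at most 12 reads in any library.

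Pik3r4, the gene of the VPS15 subunit that anchors VPS34 to membranes (ENSMUSG00000032571, chromosome 9, 105642978 to 105687657, plus strand), had 31.6, 28.2 and 29.9 CPM in WT mice and 29.9, 28.0 and 26.0 CPM in Trpm2-/- mice. It was the least variable member among knockout mice, with a CV of 6.87%, and its log2 fold change was -0.10 (SE 0.131, adjusted p = 0.677 by edgeR). Ambra1, the Beclin 1 regulator (ENSMUSG00000040506, chromosome 2, 91730134 to 91918849, plus strand), had 40.3, 33.0 and 36.0 CPM in WT mice and 39.9, 44.2 and 32.9 CPM in Trpm2-/- mice. The WT values lay inside the range of the knockout values (log2 fold change 0.10, SE 0.150, adjusted p = 0.723 by edgeR).

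Atg14 and Uvrag mark the autophagic and the endosomal form of the PI3-kinase complex, and neither passed the test. Atg14 (ENSMUSG00000037526, chromosome 14, 47540893 to 47570649, minus strand) had 25.2, 24.7 and 28.6 CPM in WT mice and 30.4, 29.6 and 22.7 CPM in Trpm2-/- mice, with mice 1 and 2 above and mouse 4 below the WT range. Its log2 fold change was 0.07 (SE 0.157, adjusted p = 0.801 by edgeR). Uvrag (ENSMUSG00000035354, chromosome 7, 98885021 to 99141141, minus strand) had 21.4, 19.1 and 22.1 CPM in WT mice and 25.1, 20.8 and 18.6 CPM in Trpm2-/- mice. Here too mouse 1 was highest and mouse 4 lowest of all 6 mice (log2 fold change 0.04, SE 0.163, adjusted p = 0.898 by edgeR). Each gene overlaps an antisense gene, Gm49004 and Gm45187, with at most 6 and 8 reads in a library, and 0.578% of the transcript windows of Uvrag also occur in 16 other genes.

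**Figure D2:**
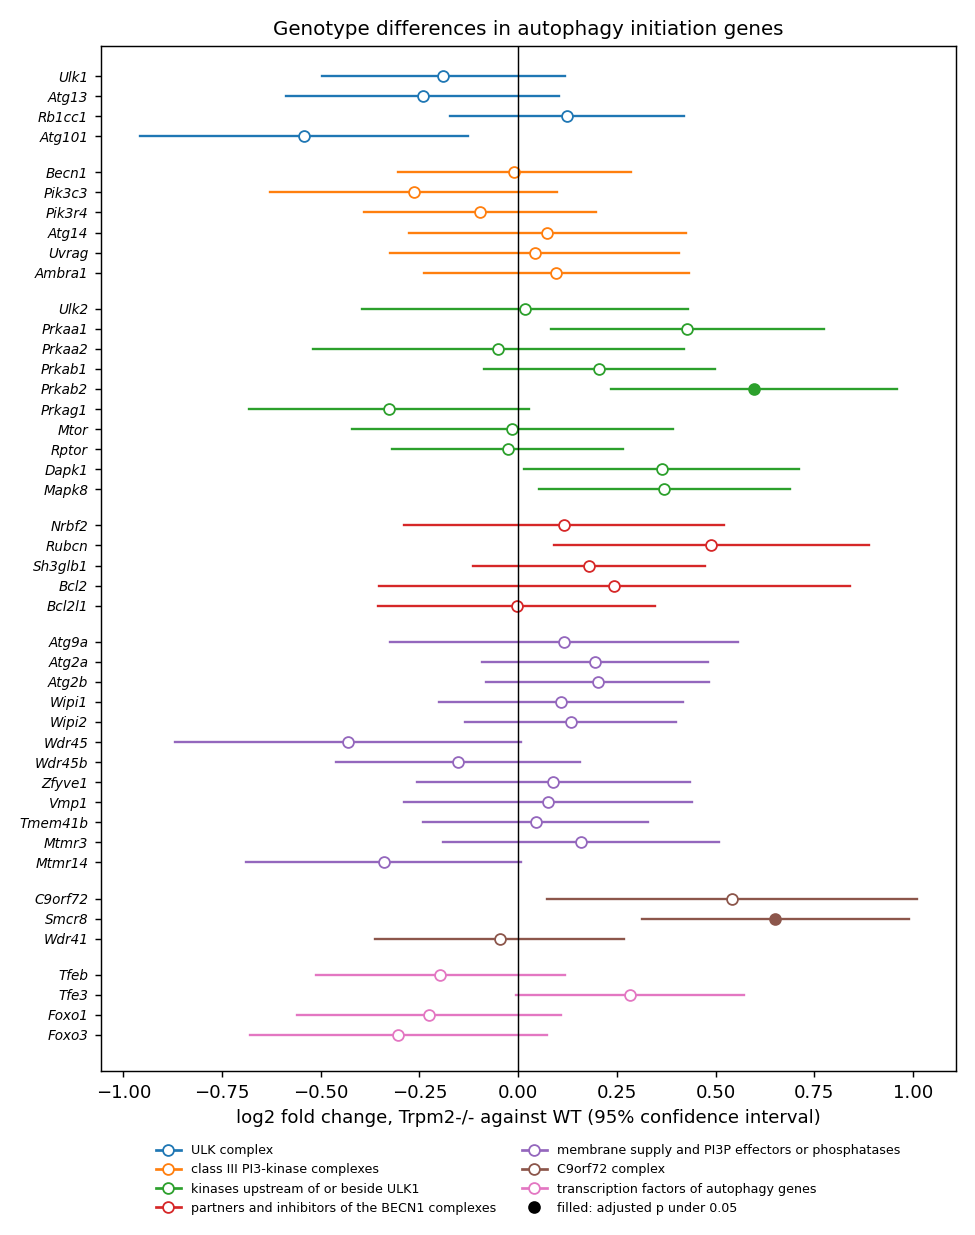
Log2 fold change of Trpm2-/- against WT (horizontal axis) with its 95% confidence interval for the 10 members and 34 other genes of the pathway, coloured by role, with filled points for an adjusted p under 0.05. Among the members, only the interval of Atg101 lies wholly on one side of 0, and the filled points are Prkab2 and Smcr8.

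Ratios between subunits in the same library do not depend on how libraries were scaled. The FPKM ratio of Atg14 to Uvrag was 2.46, 2.71 and 2.70 in WT mice and 2.53, 2.97 and 2.56 in Trpm2-/- mice. Its mean on the log2 scale was 1.39 ± 0.0775 in WT and 1.42 ± 0.130 in Trpm2-/- kidneys (SD, n = 3; two-sided exact permutation test, p = 0.8). The ratio of Pik3c3 to Pik3r4 was 1.91, 2.14 and 2.03 in WT mice and 1.95, 1.43 and 2.02 in Trpm2-/- mice, so that only mouse 2 stood apart (p = 0.4 in the same exact test). The ratio of Ulk1 to its paralog Ulk2, which can stand in for it, was 2.30, 3.05 and 3.12 in WT mice and 2.13, 2.76 and 2.53 in Trpm2-/- mice (p = 0.3 in the same exact test). The smallest p that 3 mice against 3 allow is 0.1. After the values were seen, the partners Atg101 and Atg13 were also set against each other, with no test. Their FPKM ratio was 1.76, 1.96 and 2.34 in WT mice and 1.18, 2.09 and 1.78 in Trpm2-/- mice, and only mouse 1 was below the WT range.

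**Figure D3:**
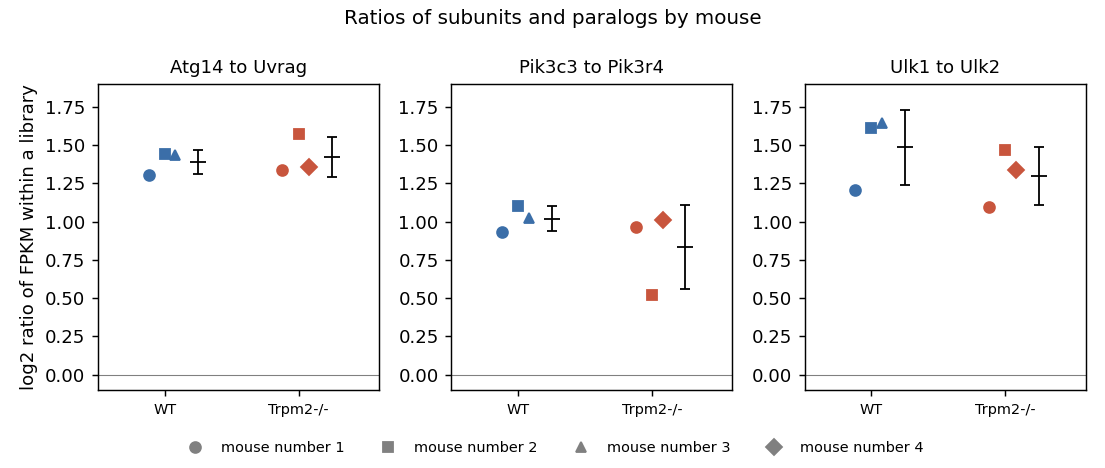
Log2 ratio of FPKM within each library (vertical axis) for Atg14 to Uvrag, Pik3c3 to Pik3r4 and Ulk1 to Ulk2 in WT (blue) and Trpm2-/- (red) mice, with the mean and SD as a black bar and the symbol giving the mouse number. Every ratio is above 0 in every mouse, and the genotypes overlap in all 3 panels.

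Per length, the members spanned a range from 21.3 ± 3.13 FPKM for Atg101 to 2.02 ± 0.152 FPKM for Uvrag in WT kidneys (SD, n = 3). Atg101, Ulk1, Atg13 and Becn1 were the highest, with means of 21.3, 12.4, 10.5 and 9.91 FPKM. Pik3c3, Atg14 and Ambra1 followed at 5.48, 5.30 and 5.21 FPKM, then Rb1cc1 at 2.92 and Pik3r4 at 2.71 FPKM. In this order, the WT values of Atg13 and Becn1 overlapped, as did those of Pik3c3 and Atg14. The same held for Atg14 with Ambra1 and for Rb1cc1 with Pik3r4, and the other steps had no overlap. Within single WT libraries, Rb1cc1 was nonetheless above Pik3r4 in every mouse (3.10, 2.75 and 2.91 against 2.87, 2.56 and 2.70 FPKM). In the other overlapping pairs the order changed between WT mice. In Trpm2-/- kidneys Atg101 (14.7 FPKM) and Ulk1 (10.98 FPKM) kept the highest means and Uvrag (2.10 FPKM) the lowest, while Becn1 (9.92 FPKM) passed Atg13 (8.99 FPKM), and Atg14 (5.62 FPKM) and Ambra1 (5.61 FPKM) passed Pik3c3 (4.60 FPKM). FPKM divides by the length of all exons of a gene, 1597 bases for Atg101 and 14690 for Rb1cc1, so genes with long exons that few transcripts use come out low.

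Values of the members were spread more widely among knockout than among WT mice. The CV of CPM was larger in Trpm2-/- than in WT kidneys for 9 of the 10 members, Ulk1 being the exception, and for 68.9% of all genes tested. The median CV of the members was 6.82% in WT and 15.0% in Trpm2-/- kidneys, against 12.7% and 19.0% over all genes. Trpm2-/- mouse 4 had the lowest value of all 6 mice for 6 of the 10 members (Atg13, Becn1, Pik3r4, Atg14, Uvrag and Ambra1) and the highest for 0, while 17.3% of all genes were lowest in this mouse. The same library also stood apart in cell type markers. Summed podocyte markers reached 478 CPM there, against 125 to 167 CPM in WT and 143 and 165 CPM in the other Trpm2-/- libraries. Summed endothelial markers reached 142 CPM there, against 58.7 to 67.7 CPM in WT. In Trpm2-/- mice 1 and 2 the endothelial sums were 35.6 and 33.0 CPM, below the WT range. Without mouse 4 the members' median log2 fold change was 0.02 in place of -0.05. Leaving out Trpm2-/- mouse 1 or 2 instead moved it the other way, to -0.12 and -0.10.

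Marker lists and the members are set side by side here in each knockout mouse. The median of the 10 members relative to the WT mean was 0.01, -0.07 and -0.20 on the log2 scale in Trpm2-/- mice 1, 2 and 4, and single members lay between -0.76 and 0.29. Summed proximal tubule markers, relative to the WT mean, were at -1.80, -2.15 and -1.46 in the same mice. Slc34a1, the phosphate carrier of the proximal tubule brush border, fell by 2.73 and Aqp1, a water channel, fell by 1.88 on the log2 scale (adjusted p = 0.00391 and 0.00564 by edgeR). Markers of the thick ascending limb and distal tubule summed to 1029 to 2252 CPM in WT and 364 to 1093 CPM in Trpm2-/- libraries, with 1 of 4 called lower. Collecting duct markers summed to 1128 to 1437 and 602 to 792 CPM, with 1 of 4 called lower. Injury markers were higher, at 2749 to 3270 and 3821 to 4825 CPM, with 1 of 4, Krt20, called. Macrophage markers summed to 102 to 128 and 76.1 to 101 CPM, with C1qa called lower, and fibroblast markers to 36.6 to 61.2 and 32.5 to 104 CPM, with 0 of 4 called. Neutrophil markers stayed at 8.35 CPM or less, T cell markers at 2.87 CPM or less and haemoglobin genes at 0.367 CPM or less in every library, and Mpo was at 0 in all of them. Urothelial markers summed to 5.14 to 35.0 CPM in WT and 5.54 to 7.37 CPM in Trpm2-/- libraries, with Upk3a called lower.

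**Figure D4:**
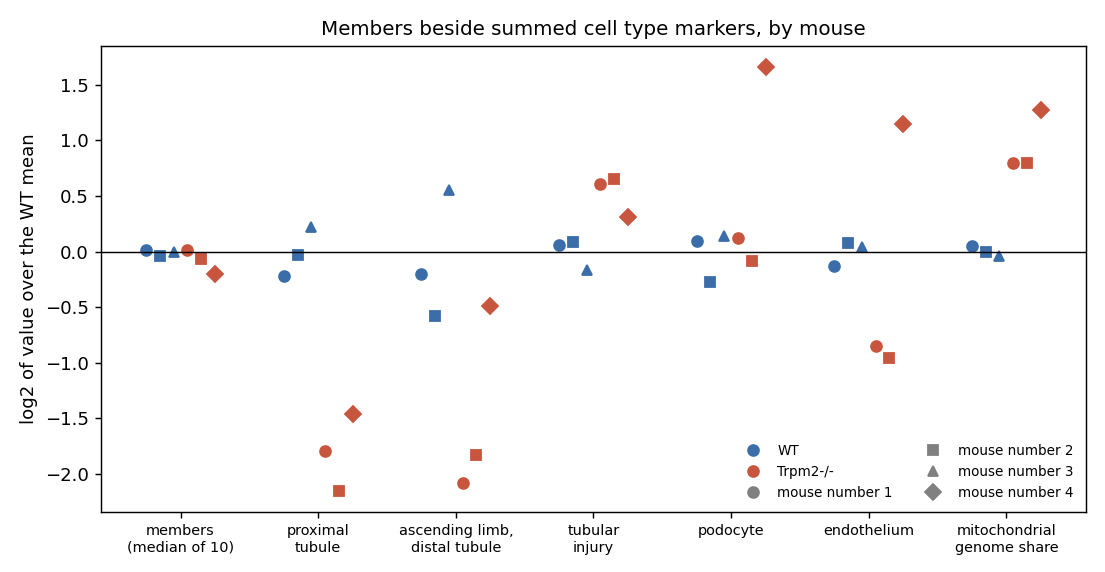
Log2 of each value over the WT mean (vertical axis) in each mouse, for the median of the 10 members, for summed markers of kidney cell types and for the share of counts on the mitochondrial genome, with WT in blue, Trpm2-/- in red and the symbol giving the mouse number. The median of the members stays between -0.20 and 0.02, with single members between -0.76 and 0.29 in Trpm2-/- mice, while proximal tubule markers of the Trpm2-/- mice lie between -2.15 and -1.46.

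Around the complexes, a list of 34 other genes of initiation and nucleation was compared in the same fit, and all 34 were tested. In Trpm2-/- kidneys 2 of them were called higher and 0 lower, beside 4.74% and 7.28% of all genes tested, so the share called higher was near that of all genes. At an unadjusted p under 0.05, 7 were higher and 0 lower, beside 14% and 14.3% of all genes. The median log2 fold change was 0.11, with 22 genes above 0 and 12 below. In 10 genes all knockout values were above all WT values, and in 1, Mtmr14, all were below, beside 16.7% and 16.8% of all genes tested.

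Smcr8 was called higher. Its product forms a complex with C9ORF72 and WDR41 that binds the ULK complex. Smcr8 had 45.2, 38.9 and 40.6 CPM in WT mice and 78.3, 58.3 and 59.2 CPM in Trpm2-/- mice, with no overlap between genotypes. Its log2 fold change was 0.65 (SE 0.151, adjusted p = 0.0238 by edgeR). The call was lost without WT mouse 2 or 3 (adjusted p = 0.119 and 0.117 by edgeR). C9orf72 had 16.8, 17.6 and 14.4 CPM in WT mice and 31.2, 21.0 and 18.9 CPM in Trpm2-/- mice, a log2 fold change of 0.54 that did not pass (adjusted p = 0.123 by edgeR), while Wdr41 had -0.05. The exons of Smcr8 overlap those of Shmt1 on the opposite strand, which was lower in Trpm2-/- kidneys (49.0 against 27.7 CPM, log2 fold change -0.82, adjusted p = 0.00749 by edgeR).

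Prkab2 was the other gene called. It encodes a regulatory subunit of AMPK, the energy-sensing kinase that activates ULK1 by phosphorylation. Prkab2 had 13.7, 14.01 and 15.6 CPM in WT mice and 24.6, 21.5 and 19.4 CPM in Trpm2-/- mice, again with no overlap. Its log2 fold change was 0.60 (SE 0.162, adjusted p = 0.0421 by edgeR), and the call was lost without any of WT mice 1, 2 and 3 and Trpm2-/- mice 1 and 2 (adjusted p = 0.115, 0.158, 0.125, 0.102 and 0.0626). Prkaa1, a catalytic subunit of AMPK, had 43.1, 31.1 and 33.1 CPM in WT mice and 51.8, 44.2 and 48.4 CPM in Trpm2-/- mice, which did not overlap, and a log2 fold change of 0.43 (adjusted p = 0.102 by edgeR). The other catalytic subunit, Prkaa2, had -0.05, and the subunits Prkab1 and Prkag1 had 0.21 and -0.33, none of them called.

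Mapk8, the gene of the stress kinase JNK1, which phosphorylates BCL2 and so frees Beclin 1, had 19.6, 20.9 and 20.4 CPM in WT mice and 27.8, 23.3 and 27.5 CPM in Trpm2-/- mice, with no overlap (log2 fold change 0.37, adjusted p = 0.121 by edgeR). Rubcn, which encodes Rubicon, an inhibitor of the UVRAG-containing complex, had 40.2, 25.3 and 29.9 CPM in WT mice and 40.4, 47.9 and 45.6 CPM in Trpm2-/- mice. Its log2 fold change was 0.49 (adjusted p = 0.106 by edgeR), and without WT mouse 1 it was 0.69 and called (adjusted p = 0.0383 by edgeR), as it also was with no filter on low counts (0.48, adjusted p = 0.0499 by edgeR). Rubcn overlaps Fyttd1 on the opposite strand, which had 51.9 and 58.9 CPM. Of the 12 genes for membrane supply and PI3P effectors or phosphatases, 0 were called and their log2 fold changes ranged from -0.43 for Wdr45 to 0.20 for Atg2b. Of the 4 transcription factors, 0 were called, and their log2 fold changes were -0.20 for Tfeb, 0.28 for Tfe3, -0.23 for Foxo1 and -0.30 for Foxo3.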

How the data were processed

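Kidney RNA-sequencing libraries of 3 WT and 3 Trpm2-/- mice were analysed. The authors deposited whole-number read counts per gene, without normalization, and FPKM values, scaled by gene length and a library total. The submitters' processing notes name HISAT2, StringTie and the build mm9, but 98.3% of the gene identifiers found in the GENCODE mouse annotation, release M21, have the start and end of GRCm38, so positions are given on GRCm38. The methods name a NEBNext Ultra II kit, and the counting tool and its strand setting are not given in the sources used here.

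The test ran in edgeR 4.0.16 (R 4.3.3), with filterByExpr (15816 genes kept), TMM, and the two-sided quasi-likelihood test on genotype, with Benjamini-Hochberg adjustment over all genes tested. Mean CPM uses TMM-normalized library sizes. Standard errors were derived from each log2 fold change and its F statistic, and intervals use t quantiles. The common dispersion was 0.0445. FPKM served for levels and ratios. Alternatives were edgeR with DESeq2's size factors or upper quartile, other filters, DESeq2 1.42.0, limma 3.58.1 (voom, and log2(FPKM + 1) or log2(FPKM + 0.1)), removal of mitochondrial genome genes, a replicate block and leaving out each mouse. Each library counts as 1 replicate. The edgeR p-values set the genotype difference against variation between libraries, estimated with information shared across genes. Replicates differed by more than sampling noise (chi-square per degree of freedom 14.7 to 40.8). Intervals and counting errors cover no other source of error than stated.

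The members, the list of 34 pathway genes and the marker lists, compiled by hand, were chosen with earlier results of these data known. Named genes are the 10 members and the pathway genes at an adjusted p under 0.05. As these pathway genes were fewer than 5, those with the 5 smallest p were named. C9orf72, Wdr41, Mtmr14, the other AMPK subunits, Wdr45, Atg2b, Shmt1, Fyttd1, the transcription factors and single marker genes were named after their values were seen. Promoter windows are from RefSeq (GRCm38.p6). Counts were simulated for 15887 genes, all with the common dispersion, and 100 genes were changed by each fold. There edgeR recovered 100% of genes changed by a fold of 4 and 10% of those changed by a fold of 1.5, so small changes can be missed. It also called 2 genes that had not been changed. The square root of the dispersion was 0.211 there and 0.132 to 0.171 for the members. Fewer genes changed there than were called in the kidneys, so the recovered shares do not carry over to the members.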

Additional observations from a re-analysis of the deposited data

How the results depend on the processing

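The count of members called higher stayed at 0 and that of pathway genes called lower at 0 under all 17 alternatives. The count of members called lower went from 0 to 1, Atg101, with no filter on low counts, and lay between 0 and 1 with each mouse left out. Pathway genes called higher were 1 rather than 2 with limma on log2(FPKM + 1) and on log2(FPKM + 0.1), 3 with no filter on low counts, which added Rubcn, 0 with the replicate block, and 0 to 2 with each mouse left out. The cause was not tested. Calls over all genes moved too, from 750 higher and 1152 lower to between 160 higher and 470 lower (without WT mouse 3) and 1262 higher and 1692 lower (no filter).

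Genes near 0 changed sign. Becn1 turned to 0.0259 with upper quartile scaling, 0.0025 without mitochondrial genome genes and 0.0348 with the replicate block, and ranged from -0.0910 to 0.0870 with each mouse left out. In the same way Uvrag ranged from -0.0870 to 0.15, Atg14 from -0.0031 to 0.21 and Ambra1 from -0.0034 to 0.21. The members' median ranged from -0.12 to 0.02. The difference in the log2 ratio of Atg14 to Uvrag ranged from -0.04 to 0.07 and that of Pik3c3 to Pik3r4 from -0.27 to -0.03.

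Numbers 1 and 2 occur in both genotypes, but the mice differ and the labels name no pairing. Deviations of same-numbered mice from their genotype means had r = 0.0960 and -0.0027, and differently numbered mice -0.29 to 0.24. With so few mice, these values cannot tell whether equal numbers share a batch. With the replicate block, 341 genes were higher and 661 lower in all. Smcr8 and Prkab2 were then not called (adjusted p = 0.0534 and 0.0938 by edgeR). As numbers 3 and 4 occur in 1 genotype each, WT mouse 3 and Trpm2-/- mouse 4 add nothing to the genotype difference in this fit, which thus rests on 4 mice, and the effect of blocking cannot be told apart from that of fewer mice. Reads limited a single value of a member to a counting error of 2.498% to 6.06%.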
